A study of Mus musculus with 9 samples.

Results

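Secretory granule genes were measured by RNA sequencing in mouse retinal cells labelled as Müller glia, the main glia of the retina. The 8 genes are Pcsk1n, Chga, Chgb, Scg2, Scg3, Scg5, Cpe and Pcsk2, matched by their symbols in the deposited tables. All 8 were listed among the 16367 genes of the table of sorted cells and among the 17035 genes of the table of cultured cells. The set was chosen from measured values: Pcsk1n, Chga and Cpe were lower in the ocular hypertension libraries, and the other granins and prohormone processing genes were added to them. Differences of these genes between ocular hypertension and sham are therefore given as a description, with no test. Genes with a mean under 10 in the 6 sorted libraries were left out, which left 14403 genes, all 8 among them.

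There were 3 groups of 3 libraries, all from wild-type (WT) mice. Animals with ocular hypertension (OHT) carried 1.2 µL of silicone oil in front of the lens of each eye, in the anterior chamber, which raises eye pressure. Sham animals had the corneal incision without oil. For both groups, 4 neural retinas per library were pooled, dissociated with papain, depleted of dead cells and sorted on magnetic beads through an antibody (ACSA-1) against GLAST, a glutamate transporter that astrocytes also carry. The ages of the sorted animals were not given in the labels used here. The 3 primary cultures came from C57BL/6J pups of postnatal day 8 to 10, were grown in DMEM with serum, were passaged, and received neither oil nor sham surgery. Nothing in the labels links a pool to particular animals, so the spread between libraries may be partly technical.

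Secretory granules of the regulated pathway store peptides and proteins until a stimulus releases them. Granins (chromogranins and secretogranins) are acidic proteins that aggregate in the trans-Golgi network and help to form and load the granule. Prohormone convertases and carboxypeptidases then cut precursor proteins into active peptides, and small chaperones or inhibitors such as 7B2 and proSAAS restrain the convertases until they reach the granule. The pathway is best known from neurons and endocrine cells, although glia also express several granin genes.

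A cAMP response element near the start site is a known feature of granin genes. Promoter sequence is shown for the 2 members that held its palindrome and, beside them, for Pcsk1n and Chga, which did not and were among the 3 genes that led to the set. A promoter of 300 bases, from 250 before to 50 after the annotated start, was given in the RefSeq table (GRCm38.p6) for 7 of the 8 members, the exception being Cpe. The palindrome TGACGTCA, which reads the same on both strands, was in the promoters of 2 of the 7, Scg2 and Chgb, and in 1.79% of the 32851 promoters of that table. Its half-site (TGACG or CGTCA, which lies inside the palindrome) was in 6 of the 7, all but Pcsk1n, and in 20.8% of all promoters. Of the 62 matched companion genes described further on, 4 held the palindrome and 26 the half-site. The windows below run from 100 to 31 bases before the start site, and capitals mark the palindrome or, in Chga, the half-site.
Scg2: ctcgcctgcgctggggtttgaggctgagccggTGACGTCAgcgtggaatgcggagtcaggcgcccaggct
Chgb: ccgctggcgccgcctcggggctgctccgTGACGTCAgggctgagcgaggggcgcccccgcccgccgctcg
Chga: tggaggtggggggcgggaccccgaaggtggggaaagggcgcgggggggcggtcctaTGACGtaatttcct
Pcsk1n: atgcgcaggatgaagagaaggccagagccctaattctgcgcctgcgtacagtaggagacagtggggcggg
These lie upstream of the genes at chr1:79440057-79440126 (Scg2, minus strand), chr2:132781542-132781611 (Chgb, plus strand), chr12:102554841-102554910 (Chga, plus strand) and chrX:7919722-7919791 (Pcsk1n, plus strand). The palindrome began at position -68 in Scg2 and -72 in Chgb, and the half-site at -44 in Chga. A match is a description of the letters, and no match in these windows says nothing about any factor. Only exact letters were searched, so lacking the palindrome does not mean lacking a cAMP response element. Both genes with the palindrome had overlapping sham and OHT values, as did Scg3, Scg5 and Pcsk2, which lack it. Pcsk1n and Chga, of which Chga holds the half-site, also lack the palindrome, and their groups did not overlap. They were chosen for being lower in OHT, and Cpe has no promoter entry, so no link between motif and contrast is read from this.

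Recovered depth was 37.8 to 44.5 M reads in the sham libraries, 47.1 to 53.6 M in the OHT libraries and 66.3 to 76.7 M in the cultures. Markers of microglia and macrophages summed to 29405 to 53010 reads per 1e6 reads of the library total (ppm) in the 6 sorted libraries, above the Müller glia markers in each of them (1584 to 7499 ppm). Rod markers summed to 2758, 26842 and 21526 ppm in sham replicates 1 to 3 and to 918, 1147 and 3470 ppm in OHT replicates 1 to 3. Rlbp1, a Müller glia marker, was at 389 to 2090 ppm in the sorted libraries but at 1.60 to 2.84 ppm in the cultures, where the smooth muscle actin gene Acta2 stood at 8134 to 13250 ppm. Over the whole list of 8, Müller glia markers summed to 2689 to 3545 ppm in the cultures, inside the sorted range, where Vim, also made by many other cultured cells, had a mean of 2757 ppm, compared with 112 ppm in sham and 98.4 ppm in OHT. Microglia and macrophage markers summed to 104 to 159 ppm in the cultures, and rod markers to 8.43 to 11.0 ppm. In such bulk libraries fewer cells of a type and less RNA per cell cannot be told apart.

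Pcsk1n, Chga and Cpe, the 3 members that led to the choice of the set, had no overlap between the groups. Pcsk1n encodes proSAAS, an inhibitor of prohormone convertase 1 and a precursor of small peptides. Its normalised read count was 466, 2187 and 1690 in sham replicates 1, 2 and 3, and 56.7, 148 and 43.3 in OHT replicates 1, 2 and 3. The lowest sham library thus stood above the highest OHT library. The mean was 1448 ± 886 (SD, n = 3) in sham and 82.7 ± 57.1 (SD, n = 3) in OHT, a ratio of 17.5 between the means. On the log2(value + 1) scale, which understates changes of low genes, the OHT minus sham difference was -4.05 (SE 0.78), the most negative among the 8.

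Chga encodes chromogranin A, the classic soluble granin. Its normalised read counts were 396, 1123 and 982 in sham and 58.0, 56.0 and 87.3 in OHT. The OHT libraries lay close together, with a highest-to-lowest ratio of 1.56, compared with 2.84 in sham. The means were 834 ± 386 and 67.1 ± 17.6 (SD, n = 3 each), 12.4-fold apart, and the log2 difference was -3.51 (SE 0.72).

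Cpe encodes carboxypeptidase E, which trims basic residues from peptide intermediates after the convertases have cut. It had the highest counts of the 8, with 5554, 27137 and 20312 in sham and 2765, 2472 and 1311 in OHT. The gap between the groups was narrow, since sham replicate 1 lay nearer to the OHT libraries than to the other sham libraries. The means were 17668 ± 11032 in sham and 2183 ± 769 in OHT (SD, n = 3 each), 8.09-fold apart, with a log2 difference of -2.80 (SE 0.55).

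**Figure D1:**
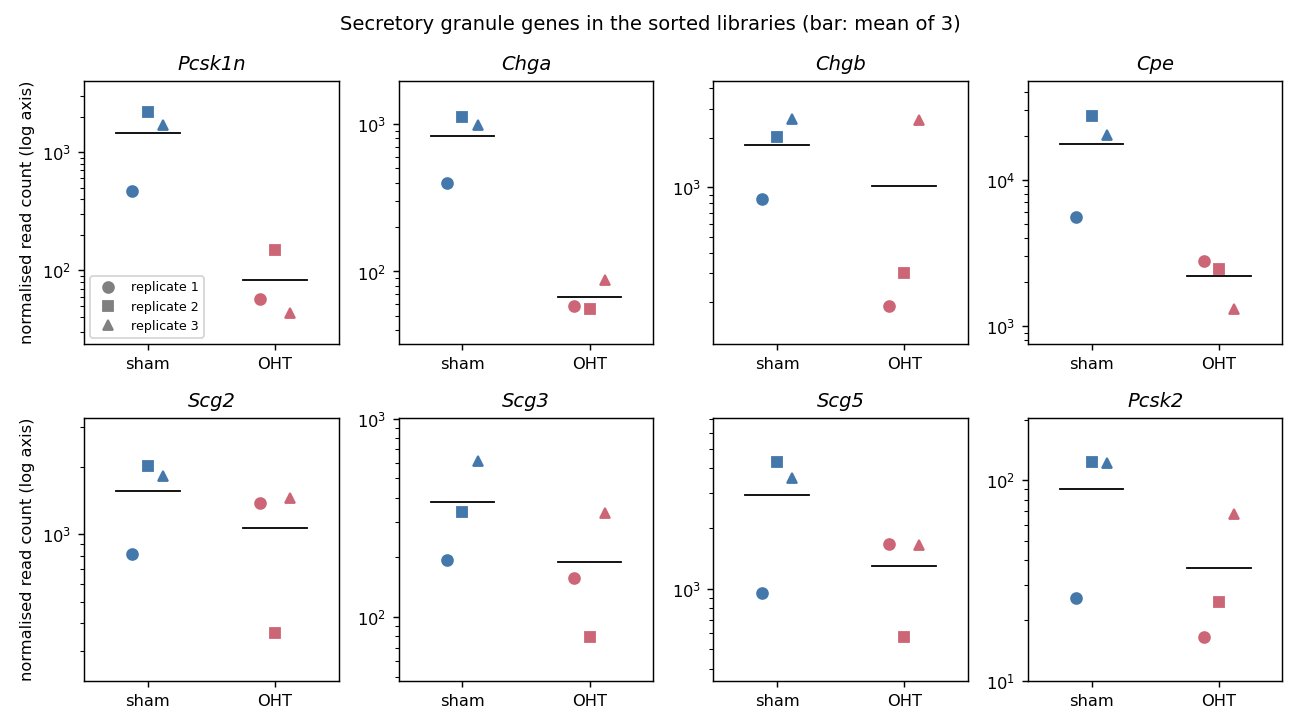
Normalised read count (log axis, a separate range in each panel) of each of the 8 genes in the 3 sham and 3 OHT libraries; marker shapes give the replicate number and the bar is the mean of 3. Pcsk1n, Chga and Cpe show separated groups, the other 5 genes overlap, and sham replicate 1 is the lowest sham library in all 8 panels.

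The other 5 members overlapped between the groups. Chgb encodes chromogranin B, a close relative of chromogranin A. Its counts were 847, 2012 and 2578 in sham and 191, 304 and 2539 in OHT, so that OHT replicates 1 and 2 were below all sham libraries while OHT replicate 3 was near the highest of them. The means were 1812 ± 882 and 1011 ± 1324 (SD, n = 3 each), and the log2 difference of -1.63 (SE 0.84) became -2.76 without OHT replicate 3 and -0.90 without OHT replicate 1. It was -0.90 with edgeR and -0.84 with DESeq2 on the recovered reads, so its size varied with both the libraries and the method.

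Scg2 encodes secretogranin II, the precursor of secretoneurin. Its counts were 814, 2024 and 1812 in sham and 1373, 361 and 1444 in OHT, with a log2 difference of -0.69 (SE 0.60). Only OHT replicate 2 was below the lowest sham library, and the difference shrank to -0.03 without it, while it was -1.10 without sham replicate 1, -0.44 without sham replicate 2 and -1.03 without OHT replicate 3. Scg3 encodes secretogranin III, which binds chromogranin A and cholesterol-rich granule membrane. Its counts were 193, 338 and 609 in sham and 158, 79.0 and 333 in OHT, with a log2 difference of -1.08 (SE 0.78), or -0.57 without OHT replicate 2 and -0.66 without sham replicate 3. OHT replicates 1 and 2 lay below the lowest sham library, and OHT replicate 3 lay within the sham range.

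Scg5 encodes 7B2, the chaperone that prohormone convertase 2 needs to become active. Its counts were 948, 4297 and 3565 in sham and 1676, 576 and 1645 in OHT, a log2 difference of -1.06 (SE 0.62) that was -1.75 without sham replicate 1, -0.66 without sham replicate 2 and -0.56 without OHT replicate 2. Pcsk2 encodes that convertase and was the member with the lowest counts, 25.8, 124 and 122 in sham and 16.6, 24.7 and 68.1 in OHT. Its log2 difference was -1.24 (SE 1.15), and it was -1.97 without sham replicate 1, -0.82 without OHT replicate 1 and -0.36 when the libraries were quantile normalised. The chaperone and its enzyme both overlapped between groups, and in both the lowest sham library lay within the OHT range.

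All 8 differences were below 0, as were 54.8% of the 14403 genes tested, whose median log2 difference was -0.12. The median over the 8 members was -1.43. All OHT libraries were below all sham libraries for 3 of the 8, and for 9.18% of all genes, a share that stands here as background only because the members were selected on this contrast. None of the 8 had all OHT libraries above all sham libraries, which 9.26% of genes did. No gene of the whole table passed limma's adjusted threshold of 0.05 (0% of 14403), with 907 lower and 773 higher genes at an unadjusted p under 0.05. Applied to the recovered reads, edgeR gave 0 calls (1575 genes at an unadjusted p under 0.05) and DESeq2 gave 250.

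Within the sham group the members shared their lowest library but not their highest. The highest was replicate 3 for Chgb and Scg3 and replicate 2 for the other members. The share of all genes with the same lowest library was not counted. Sham replicate 1 had the lowest value of the 3 sham libraries in all 8 members, and its summed level over the 8 was 237 ppm, compared with 998 and 744 ppm in sham replicates 2 and 3. In OHT the sums were 95.7, 91.2 and 198 ppm. Sham replicate 1 was also the sham library with the lowest summed rod markers, neuron markers (170 ppm, compared with 307 and 284 ppm) and astrocyte markers (13.6 ppm, compared with 634 and 1188 ppm). Its amacrine, mural cell and pigment epithelium sums were also the lowest. Its bipolar cell (83.3, compared with 61.8 and 56.2 ppm), cone (225, compared with 185 and 82.4 ppm) and horizontal cell sums (15.7, compared with 5.91 and 6.39 ppm) were the highest of the sham group. So was its microglia and macrophage sum (46922, compared with 31530 and 29405 ppm). Müller glia, ganglion cell and endothelial sums lay between. Leaving out sham replicate 1 made the log2 difference -4.73 for Pcsk1n, -3.98 for Chga and -3.50 for Cpe. With the other sham libraries left out in turn, each of the 3 stayed at -2.35 or below.

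Read numbers shifted between members as well. Cpe made up 60.1%, 69.2% and 64.1% of the reads of the 8 genes in the sham libraries and 43.9%, 61.5% and 17.5% in the OHT libraries. OHT replicate 3 was the library with the smallest share. The ratio of Chgb reads to Chga reads, not corrected for length, was 2.14, 1.79 and 2.63 in sham and 3.29, 5.43 and 29.1 in OHT. Each OHT library was above each sham library in this ratio, and OHT replicate 3 stood far above the rest. These are values of the contrast used to choose the genes and carry no test.

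Similarity over the 6 sorted libraries was described by the mean absolute difference between mean-centred log2 values, in which a smaller number means more alike. The closest pair of members was Scg2 and Scg5 (0.34), followed by Scg2 and Scg3 (0.38) and Scg3 and Scg5 (0.46). Chga and Cpe were 0.59 apart, Pcsk1n and Chga 0.65, and Pcsk1n and Cpe 0.68. The widest distance was 1.90, between Pcsk1n and Scg2. These distances use the same sham and OHT libraries by which Pcsk1n, Chga and Cpe were chosen, so that their likeness to each other follows in part from the choice. Chgb was nearer to Scg3 (0.59) than to its relative Chga (1.06).

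Outside the set, among 11485 genes whose mean was 100 or more, the 5 most like Pcsk1n were Ggt7 (0.30), Loxl1 (0.42), Pcdh1 (0.45), Atp1b1 (0.49) and Zdhhc2 (0.50). For Chga they were Sgtb (0.21), Vtn (0.28), Ankrd33b (0.31), Zdhhc2 (0.32) and Sorcs2 (0.38). For Cpe they were Katnal2 (0.33), Atp1b2 (0.35), Nrl (0.36), Ccn2 (0.36) and Aif1l (0.37). Each was closer to its member than any other member was. They are the nearest of 11485 candidates, set beside only a few other members, so nothing is read from this. They include Nrl, the transcription factor that specifies rods, and Atp1b2, a sodium pump subunit of glia and photoreceptors. Both are examples and do not stand for the other genes named. Of all the genes named as most alike, Atp1b2 had the highest mean, with 29871 ± 19185 in sham and 4133 ± 1398 in OHT (SD, n = 3 each). Vtn came next, at 10771 ± 6230 and 1218 ± 469, and Nrl stood at 10462 ± 7363 and 790 ± 310.

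Levels can be compared between genes only per length of transcript, here as ppm per kb of the longest protein-coding transcript in GENCODE M21. In sham, Cpe led with a mean of 206 (range 67.1 to 326 over the libraries), followed by Scg5 with 60.0 (20.1 to 90.4). Pcsk1n (16.3), Chgb (16.2), Scg2 (15.2) and Chga (10.9) came next and overlapped widely. Scg3 stood at 3.89 (2.07 to 6.00), and Pcsk2 was lowest at 0.470 (0.140 to 0.665), below every other member without overlap.

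The order was different in the OHT libraries. The members that fell in it, Cpe, Pcsk1n and Chga, were chosen for being lower in OHT. Their fall thus follows in part from the choice, and nothing is read from it. Scg5 (22.7, range 10.8 to 36.1) and Cpe (20.9, range 16.4 to 26.5) were at the top and overlapped, followed by Chgb (9.37) and Scg2 (8.92). Scg3 stood at 1.82. Pcsk1n (0.816) and Chga (0.790), whose means were above that of Scg3 in sham, were below it here, and their ranges overlapped with each other and with that of Scg3. Pcsk2 was again lowest, at 0.185 (0.0534 to 0.382). The summed level without Cpe was 94.4, 308 and 267 ppm in sham and 53.6, 35.1 and 163 ppm in OHT, so OHT replicate 3 lay inside the sham range.

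Several summed cell type markers had their highest library in sham. Each member was therefore also expressed relative to the summed markers of a cell type, an alternative chosen after seeing the data. Summed rod markers were 2758 to 26842 ppm in sham and 918 to 3470 ppm in OHT, neuron markers 170 to 307 and 41.4 to 223 ppm, Müller glia markers 3070 to 7499 and 1584 to 3463 ppm, and astrocyte markers 13.6 to 1188 and 20.2 to 99.9 ppm. Of the listed markers, 2 of 11 for rods, 2 of 10 for neurons, 1 of 8 for Müller glia and 0 of 4 for astrocytes were lower in all OHT libraries, and none of these lists held a marker at 0 throughout a sorted group. All 4 lists thus had their highest library in the sham group, and the ranges overlapped for each. Lists with no overlap between the groups were retinal ganglion cells (44.7 to 59.4 ppm in sham and 10.2 to 25.1 ppm in OHT, 4 of 5 listed markers lower without overlap), endothelial cells (172 to 342 and 75.2 to 142 ppm, 1 of 6) and mural cells (124 to 261 and 9.67 to 56.1 ppm, 2 of 6). Summed microglia and macrophage markers were 29405 to 46922 ppm in sham and 44600 to 53010 ppm in OHT, with 5 of 10 markers higher without overlap. Bipolar cells (56.2 to 83.3 ppm in sham and 35.6 to 287 ppm in OHT) also had their highest library in OHT. So did cones (82.4 to 225 and 48.8 to 295 ppm) and pigment epithelium (12.8 to 14.6 and 3.53 to 28.7 ppm). Amacrine and horizontal cells had theirs in sham, and the ranges overlapped for each of these lists. The part of these cell types in the members' differences was not tested.

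Per Müller glia markers, Pcsk1n, Chga and Cpe kept groups without overlap, with log2 differences of -3.30, -2.76 and -2.05. On that scale 2.51% of all genes were lower without overlap and 18.8% higher. Since the same 3 genes were selected for being lower in these libraries, nothing is read from their count of 3 of 8 beside that share. Per neuron markers, Chga alone had no overlap (-2.56), where 1.51% of genes were lower and 14.2% higher. On that scale OHT replicate 2, the library with the fewest neuron markers, brought Pcsk1n (-3.09) and Cpe (-1.85) into the sham range.

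Per rod markers, none of the 8 was lower without overlap, as were 0.347% of genes, and Scg5 and Pcsk2 were higher without overlap, as were 24.7% of genes. The log2 difference on that scale was -1.39 for Pcsk1n, -0.85 for Chga and -0.13 for Cpe, while it was 1.04 for Chgb, 1.99 for Scg2, 1.58 for Scg3, 1.61 for Scg5 and 1.38 for Pcsk2. Per astrocyte markers no member was without overlap, beside 0.319% of genes lower and 1.44% higher. Gfap gave 569 of the 634 ppm of the astrocyte sum in sham replicate 2 and 1121 of 1188 ppm in sham replicate 3. In sham replicate 1 it gave 3.99 of 13.6 ppm. The astrocyte scale thus rested largely on 1 gene in sham replicates 2 and 3. The median of all genes moved with these scales, to 2.50 for rods, 0.82 for neurons, 0.61 for Müller glia and 1.81 for astrocytes. The order of the members, with Pcsk1n lowest and Scg2 highest, is the same on every such scale because each library is divided by 1 number.

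**Figure D2:**
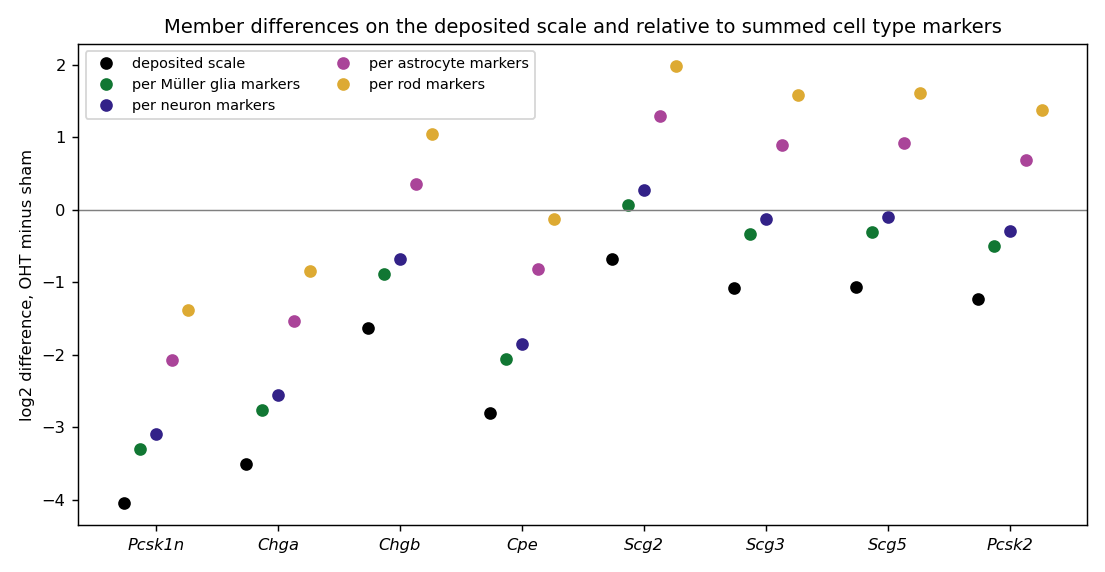
Log2 difference (OHT minus sham, means of 3 libraries each) of the 8 genes on the deposited scale and relative to summed markers of 4 cell types, 1 point per scale. Pcsk1n, Chga and Cpe lie below 0 on all 5 scales, while Chgb, Scg2, Scg3, Scg5 and Pcsk2 lie above 0 relative to rod and astrocyte markers. The median of all genes is 2.50 relative to rod and 1.81 relative to astrocyte markers, above all 8 members.

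The rest of the regulated secretory pathway was taken from lists of 75 companion genes, of which 69 were listed for the sorted cells and 63 passed the filter. In limma's fit with Benjamini-Hochberg adjustment over all 14403 genes, 0 of the 63 passed the threshold in either direction. At an unadjusted p under 0.05, 7 of the 63 were lower and 4 higher, beside 907 lower and 773 higher of all 14403 genes. edgeR called none of them, as in the whole table. DESeq2 called 2, Pam among them, beside 250 of all genes. Groups did not overlap for 8 lower and 4 higher companions, beside the 9.18% and 9.26% of all genes given above. The median log2 difference was -0.70 over the companions and -0.12 over all genes.

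Among 12 enzymes that process prohormones the median was -0.62, and groups did not overlap for 1 lower gene (Pam) and 2 higher genes (Furin and Ctsl). Of all genes, 9.18% were lower and 9.26% higher without overlap. Pam, which amidates the C-terminus of peptides that carboxypeptidase E has trimmed, had means of 699 ± 333 in sham and 118 ± 46.2 in OHT (SD, n = 3 each). Its log2 difference was -2.49 (SE 0.70), with an adjusted p of 0.332 in limma and 0.0101 in DESeq2. Furin, the convertase of the constitutive pathway, pointed the other way, with 572 ± 217 in sham and 1178 ± 371 in OHT (SD, n = 3 each, log2 difference 1.06, SE 0.49). Pcsk4 overlapped between the groups, with a log2 difference of -1.30 (SE 0.91) that was -0.41 without OHT replicate 1 and -1.85 without OHT replicate 2. Pcsk1, the convertase that proSAAS inhibits, was looked at after its values were seen: its counts were 0, 166 and 50.7 in sham and 12.4, 0 and 0 in OHT, so the groups overlapped.

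Peptide precursors were thinly measured, with 12 of 21 passing the filter and a median of -0.55. Groups did not overlap for Vgf and Tac2 (lower) and Nucb2 (higher), beside 9.18% of all genes lower and 9.26% higher. Nucb2, the precursor of nesfatin, had 1591 ± 217 in sham and 3093 ± 652 in OHT (SD, n = 3 each), a log2 difference of 0.95 (SE 0.36) with an adjusted p of 0.367 in limma. Vgf, a granin-like precursor, had no read in any OHT library and a mean of 0.712 ppm in sham, which is at least 11.7-fold lower against a floor of 3 reads per OHT library. Cartpt, precursor of the CART peptide, had counts of 76.4, 327 and 546 in sham and of 5.53, 20.6 and 135 in OHT, overlapping, with a log2 difference of -3.17 (SE 1.27). Gal, the galanin precursor, was high in a single library, with 1934 in OHT replicate 1 and at most 26.4 in the other sorted libraries, and its log2 difference of 4.11 was 1.93 without that library.

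Genes of granule biogenesis and release had the lowest median of the larger lists, -1.03 over 28 genes, of which 21 were below 0. Groups did not overlap for 4 lower genes, Ptprn2 and Vamp2 among them, and for 1 higher gene, Rab27a. The shares over all genes were 9.18% lower and 9.26% higher. Vamp2, the vesicle SNARE, had 2522 ± 996 in sham and 832 ± 351 in OHT (SD, n = 3 each, log2 difference -1.60, SE 0.49). Ptprn, a granule membrane protein, overlapped between the groups. Its log2 difference of -2.20 (SE 1.54) was -3.74 without sham replicate 1, -1.33 without sham replicate 3 and -0.91 without OHT replicate 1. The list shares Snap25 and Syt1 with the neuron markers, and summed neuron markers were 170 to 307 ppm in sham and 41.4 to 223 ppm in OHT, whose part was not tested.

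The regulators of granin genes showed smaller differences, with a median of -0.24 over 9 genes. Only Crtc3, a coactivator of CREB, had no overlap, beside 9.18% of all genes lower and 9.26% higher. Crtc3 had 656 ± 31.2 in sham and 413 ± 182 in OHT (SD, n = 3 each) and a log2 difference of -0.76 (SE 0.54), or -0.42 without OHT replicate 1. Creb1, the factor that binds the palindrome, differed by 0.40 (SE 0.40), from 0.21 to 0.64 with a library left out, and overlapped. Crtc1 had a log2 difference of -0.53 (SE 0.73) that turned to 0.22 without OHT replicate 1. Gpr171, the receptor reported for a proSAAS-derived peptide, had 27.9, 39.7 and 331 in sham and 984, 300 and 229 in OHT, overlapping (log2 difference 2.48, SE 1.03, adjusted p 0.397 in limma).

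**Figure D3:**
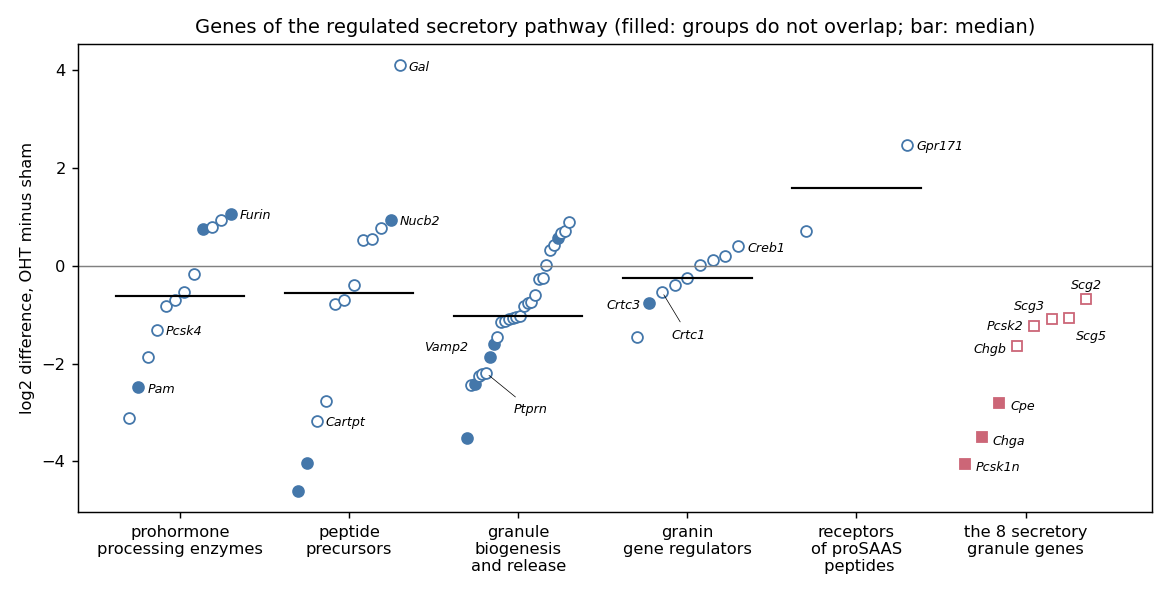
Log2 difference (OHT minus sham) of each companion gene that passed the filter, by list (circles), and of the 8 secretory granule genes (squares); filled symbols have groups without overlap, and the black bar is the median of each companion list. The 28 genes of granule biogenesis and release have a median of -1.03, compared with -0.12 over all genes, and Pam and Vamp2 are among the filled symbols below 0.

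In the primary cultures 7 of the 8 members were lower than in every sorted library, and Cpe was not. The culture table was normalised separately, so levels are given as ppm and no test was made across the tables. Recovered reads in culture replicates 1, 2 and 3 were 0, 6 and 7 for Pcsk1n, 2, 9 and 0 for Chga, and 13, 18 and 17 for Chgb. They were 20, 10 and 32 for Scg2, 8, 0 and 10 for Scg3, 91, 105 and 130 for Scg5, and 0, 1 and 8 for Pcsk2. A count of 0 allows up to 3 reads, or 0.0391 to 0.0452 ppm at the depth of the cultures, so these values are at or little above that floor for Pcsk1n, Chga, Scg3 and Pcsk2. Such limits cover counting error only.

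For these 7 members every culture was below every sorted library, which held for 16.5% of the 15438 genes listed in both tables, while 32.5% had every culture above. The mean level of Pcsk1n was 35.7 ± 22.1 ppm in sham, 1.79 ± 1.37 ppm in OHT and 0.0568 ± 0.0496 ppm in culture (SD, n = 3 each). Chgb had 44.5, 25.7 and 0.218 ppm in the same order, and Scg5, the highest of the 7 in culture, had 72.4, 27.4 and 1.48 ppm. The Chga and Pcsk2 means in culture depended on 1 culture each, replicate 2 with 9 of 11 Chga reads and replicate 3 with 8 of 9 Pcsk2 reads. Without it, the log2 ratio of culture to sham was -10.41 for Chga and -8.39 for Pcsk2, and with any other culture or sorted library left out it was higher.

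Cpe stood apart from the others, with 6437, 11836 and 9173 reads in the cultures, or 97.1, 156 and 120 ppm. That is above the 3 OHT libraries (42.0, 56.0 and 34.7 ppm), while sham replicate 1, at 142 ppm, lay within the culture range. The culture mean of 124 ± 30.0 ppm was 2.81-fold above the OHT mean of 44.3 ppm, and the sham mean of 436 ppm was 3.51-fold above the culture mean. The log2 ratio of culture to OHT was 1.49 and became 1.12 with the 20 highest genes left out of the totals and 0.94 with scaling to the median of 12300 genes. Cpe made up 97.8% to 98.8% of the reads of the 8 genes in the cultures. Per kb, Cpe (58.7) was followed by Scg5 (1.23) and Scg2 (0.113).

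**Figure D4:**
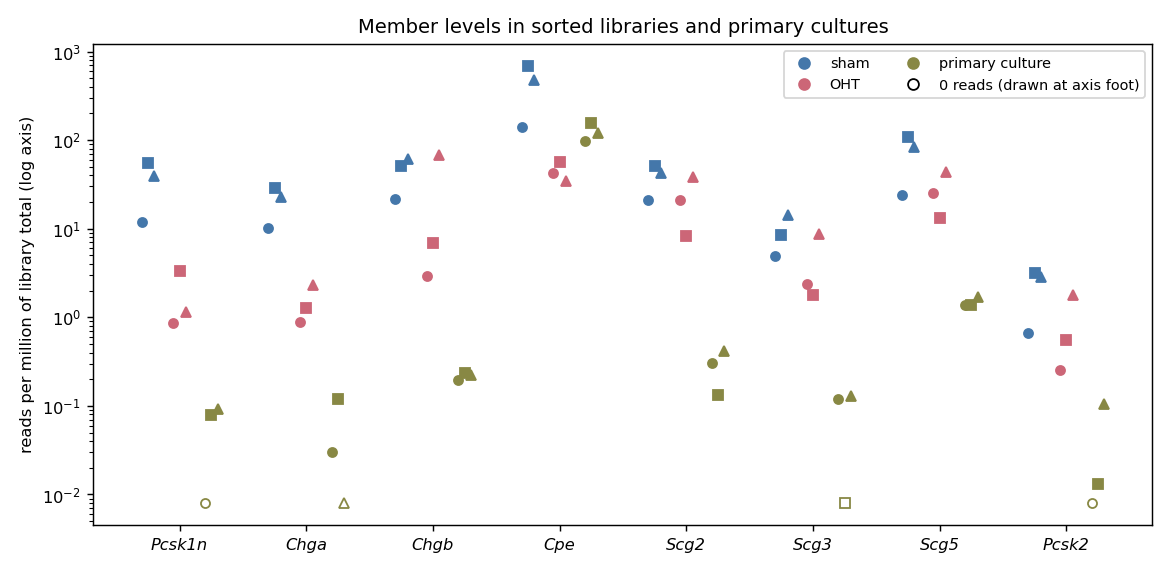
Level of the 8 genes in ppm of the library total (log axis) in the 3 sham, 3 OHT and 3 primary culture libraries, 1 point per library with the marker shape giving the replicate number (circle 1, square 2, triangle 3); open points at the foot are libraries with 0 reads. In cultures 7 genes lie below all sorted libraries, and Cpe lies at 97.1 to 156 ppm, above the OHT libraries.

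Of 62 listed in both tables, 13 had every culture below every sorted library and 15 had every culture above. Those above included Ptprn (48.1 ± 6.10 ppm, compared with 6.76 ppm in sham and 1.51 ppm in OHT), Cyb561, the granule cytochrome (42.4 ± 11.0 ppm, compared with 4.33 and 0.192 ppm), Furin (57.2 ± 1.12 ppm, compared with 14.1 and 24.1 ppm), Nucb2 (106 ± 3.65 ppm, compared with 39.5 and 64.7 ppm) and Vgf (1.97 ± 0.371 ppm, compared with 0.712 and 0 ppm). Pam was at 30.5 ± 6.89 ppm in culture, compared with 17.3 ppm in sham and 2.37 ppm in OHT, and did not separate from all sorted libraries. The companions above thus made up a smaller share than the 32.5% of all genes, and those below were near the 16.5%. Those below included Vamp2 (3.88 ± 0.497 ppm, compared with 62.2 and 17.2 ppm) and Snap25, a SNARE of neurons (0.0304 ppm, compared with 159 and 77.0 ppm). The whole list of 10 neuron markers, of which 9 were listed for the cultures, went the other way, with 776 to 1371 ppm in the cultures and 41.4 to 307 ppm in the sorted libraries. Stmn2 gave most of it, with a mean of 731 ppm in culture, 4.17 ppm in sham and 0.744 ppm in OHT. Cyb561, Snap25 and Stmn2 were named here after their values were seen.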

How the data were processed

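The deposited signal is 1 normalised read count per gene and library, in separate tables for the sorted cells and the cultures. Per the deposited values it is a count divided by 1 factor per library: dividing by the smallest step gave whole reads for 100% of values (tolerance 0.05 reads), an independent check in all libraries but primary culture replicate 3, whose step is close to 1. Per the submitters' processing notes, bcl2fastq 2.20, Trim Galore 0.6.6, FastQC 0.11.9, STAR 2.7.1a and build mm39 were used. For the counting program, annotation and normalisation, no name is given in the sources used here. Per the labels' protocols, cDNA was amplified with a low-input template-switching kit and sequenced as paired 150 bp reads.

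OHT was compared with sham by limma 3.58.1 (lmFit, eBayes with trend, R 4.3.3) on log2(value + 1). The fit held the 14403 genes whose mean over 6 libraries was 10 or more. Calls needed a Benjamini-Hochberg adjusted p under 0.05. p-values measure only the spread between these libraries. Levels across tables are reads per 1e6 reads of the library total. The smallest step, 1 read, was worth 0.0130 to 0.0264 ppm. All columns belonged to a sample. Overlapping and near-identical genes cannot be separated in such counts. The main limma step was checked on simulated counts with known changes, and the alternatives were not. Members, companion lists, markers and rules were chosen with earlier results of these data known. Named genes were the members, companions past the threshold, the 3 companions per list with the largest log2 difference at a mean of at least 100, and the 5 genes most like Pcsk1n, Chga and Cpe each, predicted genes skipped; some genes of the lists are not reported here by name. Alternatives were pseudocounts of 0.5 and 10, no filter, a mean of at least 100, TMM, quantile normalisation, no trend, a replicate block, edgeR 4.0.16 and DESeq2 1.42.0 on recovered reads, and leaving out each library. Scaling by summed cell type markers was added after seeing the data.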

Additional observations from a re-analysis of the deposited data

How the results depend on the processing

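Under other settings (pseudocounts, filters, TMM, quantile normalisation, no trend, replicate block, edgeR, DESeq2 and each library left out) the log2 difference of all 8 members stayed below 0, from -4.73 to -3.62 for Pcsk1n, -3.98 to -3.09 for Chga, -3.50 to -2.35 for Cpe, -2.76 to -0.84 for Chgb, -1.10 to -0.03 for Scg2, -1.60 to -0.54 for Scg3, -1.75 to -0.56 for Scg5 and -1.97 to -0.36 for Pcsk2. Relative to summed markers, which was added after seeing the data, the direction turned for Chgb (1.04 for rods and 0.35 for astrocytes), Scg2 (1.99 for rods, 0.27 for neurons, 0.0652 for Müller glia and 1.30 for astrocytes), Scg3 (1.58 and 0.89 for rods and astrocytes), Scg5 (1.61 and 0.92) and Pcsk2 (1.38 and 0.69). Dividing a library by 1 number shifts all its genes together. The median of all genes became 2.50 for rods, 0.82 for neurons, 0.61 for Müller glia and 1.81 for astrocytes. All 8 members lay below that median on each of these scales. Why the summed markers differed between the groups was not tested. Crtc1 turned to 0.0655 under quantile normalisation and ranged from -1.14 to 0.22 with a library left out, the upper value without OHT replicate 1. The genes called in the whole table were 0 by limma, 2 with the replicate block, 250 by DESeq2, and 0 to 17 with a library left out (12 without sham replicate 1 and 17 without sham replicate 3). Companion genes called were 2 by DESeq2 and 0 elsewhere. At an unadjusted p under 0.05, 1680 genes became 544 without sham replicate 2, 1055 without sham replicate 3 and 2508 without OHT replicate 2. No pairing by replicate number was seen: same-numbered sham and OHT libraries correlated at 0.078, -0.025 and -0.045 in their deviations from the group means. Differently numbered ones correlated at -0.073 to 0.1. With so few libraries these values cannot exclude a shared batch. The replicate block therefore stands only as an alternative. The count of 7 members with every culture below every sorted library was the same in each alternative run for it. Low read numbers limit the members in the cultures, although these were the deepest libraries. There, 0 to 18 reads lay behind each value of Pcsk1n, Chga, Chgb, Scg3 and Pcsk2.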
